A study of Mus musculus with 8 samples.

Results

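The genes described here are 40 genes of the lymphoid lineages, chosen by name: regulators, receptors and signalling molecules of B cells, T cells and natural killer (NK) cells. Of these, 38 were matched to a probe set with a single gene symbol, among 19938 symbols measured, and each was measured by 1 probe set. Lck and Tcf7 were not matched and were not analysed here. The 38 genes fall into 6 roles: 8 genes of early B cell development and antigen receptor recombination, 6 of the B cell receptor and B cell surface, 8 of the T cell receptor, its coreceptors and its signalling, 4 of T lineage transcription and Notch, 7 of NK and cytotoxic function, and 5 of the Ikaros, E protein and Id families.

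The series used 8 microarrays in 4 groups of 2, all with total RNA from mouse cells of the C57BL/6 strain. One group carried an empty vector, one the fusion NUP98-HOXA9, and the others the fusion mutants NUP98-HOXA9 delFG1 and NUP98-HOXA9 delFG2. NUP98-HOXA9 is a leukaemia fusion that links the phenylalanine-glycine (FG) repeats of a nuclear pore protein, NUP98, to the homeodomain of HOXA9, which binds DNA, and the mutants ask what the NUP98 moiety contributes to gene regulation. The labels give neither the kind of cell nor its age, neither the vector's promoter nor the residues each mutant lacks. They number the arrays of every group 1 and 2, without saying whether these were separate cultures, and the p-values below reflect a spread between arrays that may be technical.

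Lymphoid commitment begins in progenitors that receive interleukin 7 through Il7r, and proceeds under the E proteins (such as Tcf3), which bind the DNA letters CANNTG. The Id proteins (Id2, Id3) pair with E proteins and keep them from DNA, Ebf1 and Pax5 set the B lineage, and Notch1 signals set the T lineage. Several of these genes are also active outside lymphocytes, Id2 and Ikzf1 in myeloid cells among them. HOXA9 is a myeloid and progenitor regulator that also acts in early lymphoid cells.

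Across the 38 genes, 6 fell with the full-length fusion relative to the empty vector and none rose, when the array number was fitted as a block. These were Il7r, Id2, Cd22, Id3, Blnk and Notch1, with falls between 1.28-fold and 2.01-fold. In the fit without the block, which was planned as the main one, none of the 38 passed the threshold in any comparison. E proteins, which Id proteins inhibit, have a known binding motif, and a link between it and these falls was not tested. The promoter sequences are shown for these 6 genes, which fell in the same comparison. Each is the 250 bases before the annotated start, read 5′ to 3′ on the gene's strand, from RefSeq on GRCm38.p6, and capitals mark CANNTG.
Il7r promoter, chr15:9529877-9530126, minus strand: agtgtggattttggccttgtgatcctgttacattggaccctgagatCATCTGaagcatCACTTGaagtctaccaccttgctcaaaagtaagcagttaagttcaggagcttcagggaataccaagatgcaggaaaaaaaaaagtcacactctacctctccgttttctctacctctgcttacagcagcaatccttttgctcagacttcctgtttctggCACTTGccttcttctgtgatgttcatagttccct
Id2 promoter, chr12:25096093-25096342, minus strand: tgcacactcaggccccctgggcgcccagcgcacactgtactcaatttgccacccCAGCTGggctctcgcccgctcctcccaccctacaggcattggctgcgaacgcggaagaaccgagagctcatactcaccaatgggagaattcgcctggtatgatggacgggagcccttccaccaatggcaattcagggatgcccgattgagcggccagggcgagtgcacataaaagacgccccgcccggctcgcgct
Cd22 promoter, chr7:30879029-30879278, minus strand: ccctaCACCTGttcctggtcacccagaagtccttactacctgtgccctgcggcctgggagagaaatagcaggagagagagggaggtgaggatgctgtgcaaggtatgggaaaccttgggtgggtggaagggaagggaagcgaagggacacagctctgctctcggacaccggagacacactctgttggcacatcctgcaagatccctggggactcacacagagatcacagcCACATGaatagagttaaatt
Id3 promoter, chr4:136143572-136143821, plus strand: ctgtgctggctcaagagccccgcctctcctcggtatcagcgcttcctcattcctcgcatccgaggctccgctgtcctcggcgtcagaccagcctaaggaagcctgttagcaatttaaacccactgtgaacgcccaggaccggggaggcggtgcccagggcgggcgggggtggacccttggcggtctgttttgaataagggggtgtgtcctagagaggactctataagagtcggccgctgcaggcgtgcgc
Blnk promoter, chr19:40994222-40994471, minus strand: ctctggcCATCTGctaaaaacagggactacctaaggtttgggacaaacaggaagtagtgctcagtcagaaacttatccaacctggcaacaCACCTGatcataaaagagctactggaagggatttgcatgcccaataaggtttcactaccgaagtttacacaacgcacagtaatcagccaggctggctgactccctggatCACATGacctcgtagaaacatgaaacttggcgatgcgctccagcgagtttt
Notch1 promoter, chr2:26503823-26504072, minus strand: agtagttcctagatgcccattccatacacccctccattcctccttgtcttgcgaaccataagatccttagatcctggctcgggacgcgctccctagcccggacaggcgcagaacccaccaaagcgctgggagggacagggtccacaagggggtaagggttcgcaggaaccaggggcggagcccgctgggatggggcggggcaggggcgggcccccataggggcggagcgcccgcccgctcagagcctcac

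The motif CANNTG reads the same on both strands. It occurred 3 times in the windows of Il7r and Blnk, as CATCTG and CACTTG in Il7r, and also in those of Cd22 and Id2, but its letters are in neither the Id3 nor the Notch1 window. Of 32851 windows of the same length, 66.2% held it at least once and 12.2% at least 3 times. TGATNNAT, a motif known for pairs of HOX and PBX proteins, was searched on both strands and was in none of the 6 windows, while 7.68% of all windows held it. Among the 38 genes, 31 had a window in the table, of which 25 held CANNTG and 2 held TGATNNAT. A gene was counted if any of its windows held the motif, so these counts are not on the same footing as the shares of single windows. The windows shown were between 44.0% and 66.0% G or C, with a median of 52.4% over all windows. These matches describe letters and do not show binding.

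Signals are given as log2(intensity + 1) of the deposited values. Array medians lay between 6.35 and 6.40 on this scale, and the median difference between a group's arrays over all probe sets was between 0.10 and 0.12. The table holds no detection calls, so a low signal cannot be called absent. Of the 38 genes, 25 lay below the lowest array median on all 8 arrays, 8 lay above the highest on all 8, and 5 lay on both sides. The 8 above were Il7r, Cd79b, Lat, Notch1, Nkg7, Ikzf1, Tcf3 and Id2. A choice of 9 measured genes was taken to define lymphocytes. These were Cd79a, Pax5 and Ms4a1 for B cells, Cd3e, Cd3d and Cd3g for T cells, and Klrb1c, Eomes and Ncr1 for NK cells. All 9 lay between 4.43 and 5.99 on every array. Other lymphoid genes lay higher, Cd79b and Nkg7 among them. In the further lists below, mean signals on arrays numbered 1 and 2 were 9.94 and 10.01 for Klrb1f and 10.44 and 10.05 for Thy1. For Klrd1, of the same list as Klrb1f, they were 4.68 and 4.66. In bulk samples such as these, fewer cells of a type and less RNA per cell cannot be told apart.

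**Figure D1:**
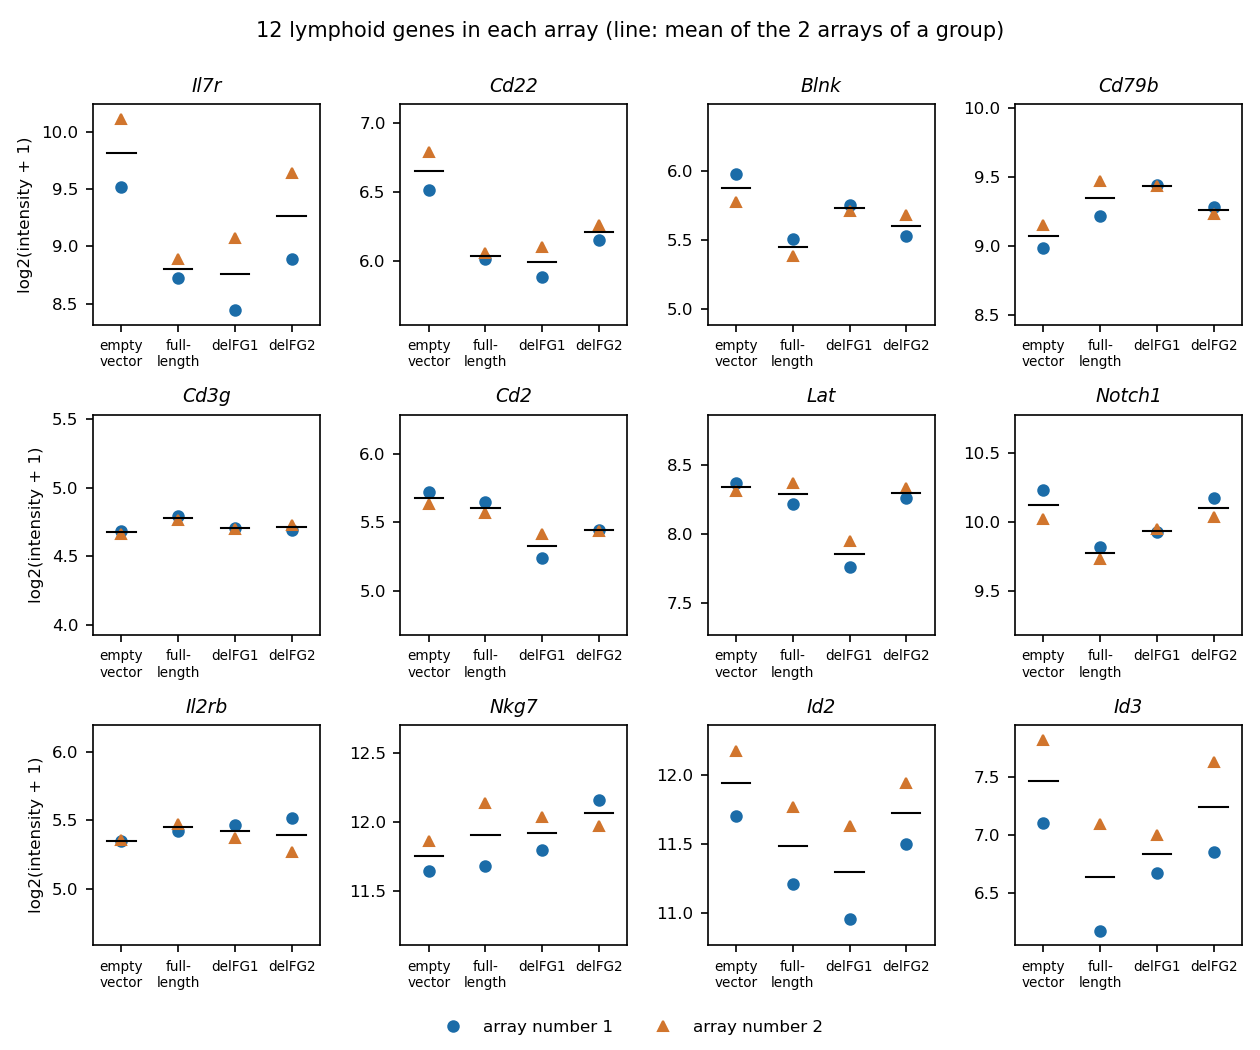
Signal, as log2(intensity + 1), of 12 lymphoid genes on each of the 8 arrays, by group, with each panel on its own axis. Circles are arrays numbered 1, triangles arrays numbered 2, and lines the mean of a group's 2 arrays. Il7r lay between 8.73 and 8.89 with the full-length fusion and at 9.51 and 10.11 with the empty vector.

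The first comparison asked how the lymphoid genes differ with the full-length fusion. With the array number as a block, 6 of 38 (15.8%) were lower, beside 4.43% of all probe sets tested, and 0 were higher, beside 2.18%. Without the block the limma test called 0 of 38, beside 0.124% of all probe sets, with an unadjusted p under 0.05 for 7 genes, beside 9.54%. The median difference over the 38 genes was 0.02, the same as the 0.02 over all probe sets, and 20 of 38 differences were above 0. The 2 fusion arrays lay wholly above the 2 empty vector arrays for 10 genes and wholly below for 7, beside 23.4% and 15.6% of all probe sets. Intervals below are 95% intervals from the fit with the block, and adjusted p-values are Benjamini-Hochberg values over all probe sets.

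Among the early B cell genes, Il7r, the interleukin 7 receptor alpha chain, fell most. Its signal was 9.51 and 10.11 on the empty vector arrays, and 8.73 and 8.89 with the full-length fusion. On the delFG1 arrays it was 8.44 and 9.08, and on the delFG2 arrays 8.89 and 9.64. All fusion and delFG1 arrays lay below both empty vector arrays, while the delFG2 arrays overlapped them. The difference between full-length fusion and empty vector was -1.01 (interval -1.28 to -0.73, adjusted p = 0.000858 with the block and 0.33 without), a 2.01-fold lower signal. Within array number 1 the difference was -0.79, and within number 2 it was -1.23.

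The other 7 early B cell genes did not pass in any comparison. Ebf1 and Pax5, the transcription factors of B cell identity, Vpreb1 and Igll1, the surrogate light chain, Rag1 and Rag2, the recombinase, and Dntt, which adds bases at antigen receptor joins, differed by between -0.01 and 0.25. The bounds of their intervals ran from -0.19 to 0.49. Rag2, Dntt and Ebf1, with empty vector means of 4.56, 4.84 and 5.01, lay near the bottom of the table, where there is little room for a fall. Igll1 had the largest difference, 0.25, with an adjusted p of 0.249.

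In the B cell receptor and surface group, Cd22 and Blnk fell. Cd22, an inhibitory receptor of B cells that binds sialic acid, had signals of 6.51 and 6.79 with the empty vector and 6.01 and 6.05 with the full-length fusion. Its signals were 5.88 and 6.10 with delFG1 and 6.15 and 6.26 with delFG2. All 6 arrays of the fusion and its mutants thus lay below both empty vector arrays, and also below the lowest array median. The difference with the full-length fusion was -0.62 (interval -0.84 to -0.40, adjusted p = 0.00387 with the block and 0.144 without).

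Blnk, the adaptor that links the B cell receptor to its downstream enzymes, had signals of 5.98 and 5.77 with the empty vector and 5.51 and 5.39 with the full-length fusion. It was 5.75 and 5.71 with delFG1 and 5.53 and 5.68 with delFG2, below the lowest array median throughout. Its difference with the full-length fusion was -0.43 (interval -0.64 to -0.22, adjusted p = 0.0215 with the block and 0.205 without). Cd79b, the receptor's signalling subunit Ig beta, stood at 8.99 and 9.15 with the empty vector and 9.22 and 9.47 with the full-length fusion. It stood at 9.44 and 9.43 with delFG1 and at 9.28 and 9.23 with delFG2. The empty vector arrays were thus the lowest of the 8, but the difference of 0.28 with the full-length fusion did not pass (adjusted p = 0.123 with the block). Its partner Cd79a lay below the array medians throughout. Cd79a, the kinase gene Blk and Ms4a1, which encodes CD20, had differences between -0.13 and 0.08.

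None of the 8 genes of the T cell receptor group passed with the full-length fusion. Lat, the membrane adaptor of T cell receptor signalling, which mast cells and platelets also use, had the highest mean signal of the group. It was 8.37 and 8.31 with the empty vector, 8.22 and 8.37 with the full-length fusion, 7.76 and 7.95 with delFG1 and 8.26 and 8.34 with delFG2, so the delFG1 arrays alone lay apart, below all others. Cd2, an adhesion receptor of T and NK cells, showed 5.72 and 5.64, 5.65 and 5.57, 5.24 and 5.42, and 5.45 and 5.44 in the same order. Its delFG1 and delFG2 arrays lay below the other 4, and all 8 arrays lay below the lowest array median. Cd3g, a CD3 chain, had the smallest unadjusted p of the group, with 4.68 and 4.67 against 4.79 and 4.77, a difference of 0.11 (adjusted p = 0.272 with the block). Its delFG1 arrays gave 4.71 and 4.70 and its delFG2 arrays 4.69 and 4.73. Cd3e, Cd3d, Cd4, Cd8a, Zap70 and Cd3g, none of which passed in any comparison, differed by between -0.04 and 0.13 with the full-length fusion.

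Notch1, the receptor that commits progenitors to the T lineage, fell with the full-length fusion. Its signal was 10.23 and 10.02 with the empty vector and 9.82 and 9.73 with the full-length fusion, whose arrays were the lowest of the 8. With delFG1 it was 9.93 and 9.95, and with delFG2 it was 10.17 and 10.04, within the range of the empty vector. The difference with the full-length fusion was -0.35 (interval -0.53 to -0.18, adjusted p = 0.0215 with the block and 0.335 without). The T lineage transcription factor genes Gata3, Lef1 and Bcl11b passed in no comparison and differed by between 0.09 and 0.19.

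No NK or cytotoxic gene passed in any comparison. Nkg7, a granule membrane protein of cytotoxic cells, had the highest mean signal in this group. It stood at 11.64 and 11.86 with the empty vector, 11.68 and 12.13 with the full-length fusion, 11.79 and 12.04 with delFG1 and 12.16 and 11.97 with delFG2. The groups of Nkg7 overlapped except delFG2, whose arrays lay above those of the empty vector. Il2rb, a receptor chain for interleukins 2 and 15, stood at 5.35 and 5.36, 5.43 and 5.47, 5.47 and 5.37, and 5.51 and 5.27 in the same order. Its difference with the full-length fusion was 0.10 (adjusted p = 0.637 with the block). All 7 genes of the group, which also holds Klrb1c, Tbx21, Eomes, Prf1 and Gzma, differed by between -0.07 and 0.15.

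Both Id genes fell, in the group of Ikaros, E protein and Id genes. Id2, which NK and other innate lymphoid cells need, had signals of 11.71 and 12.17 with the empty vector and 11.20 and 11.77 with the full-length fusion. It had 10.95 and 11.63 with delFG1 and 11.50 and 11.94 with delFG2. These groups overlap in part, but within each array number the full-length fusion was lower, with differences of -0.50 for number 1 and -0.41 for number 2. The fitted difference was -0.45 (interval -0.60 to -0.31, adjusted p = 0.00226 with the block and 0.669 without). Id3, which with Id2 restrains E proteins in developing lymphocytes, had signals of 7.11 and 7.82 with the empty vector, 6.17 and 7.09 with the full-length fusion, 6.67 and 6.99 with delFG1 and 6.85 and 7.63 with delFG2. The full-length and delFG1 arrays lay below both empty vector arrays, and the delFG2 arrays overlapped them. Its difference was -0.83 (interval -1.13 to -0.53, adjusted p = 0.0045 with the block and 0.518 without). The other members were Ikzf1, which encodes Ikaros, its relative Ikzf3, and Tcf3, which encodes the E proteins E12 and E47. They differed by between -0.31 and 0.05 and did not pass.

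**Figure D2:**
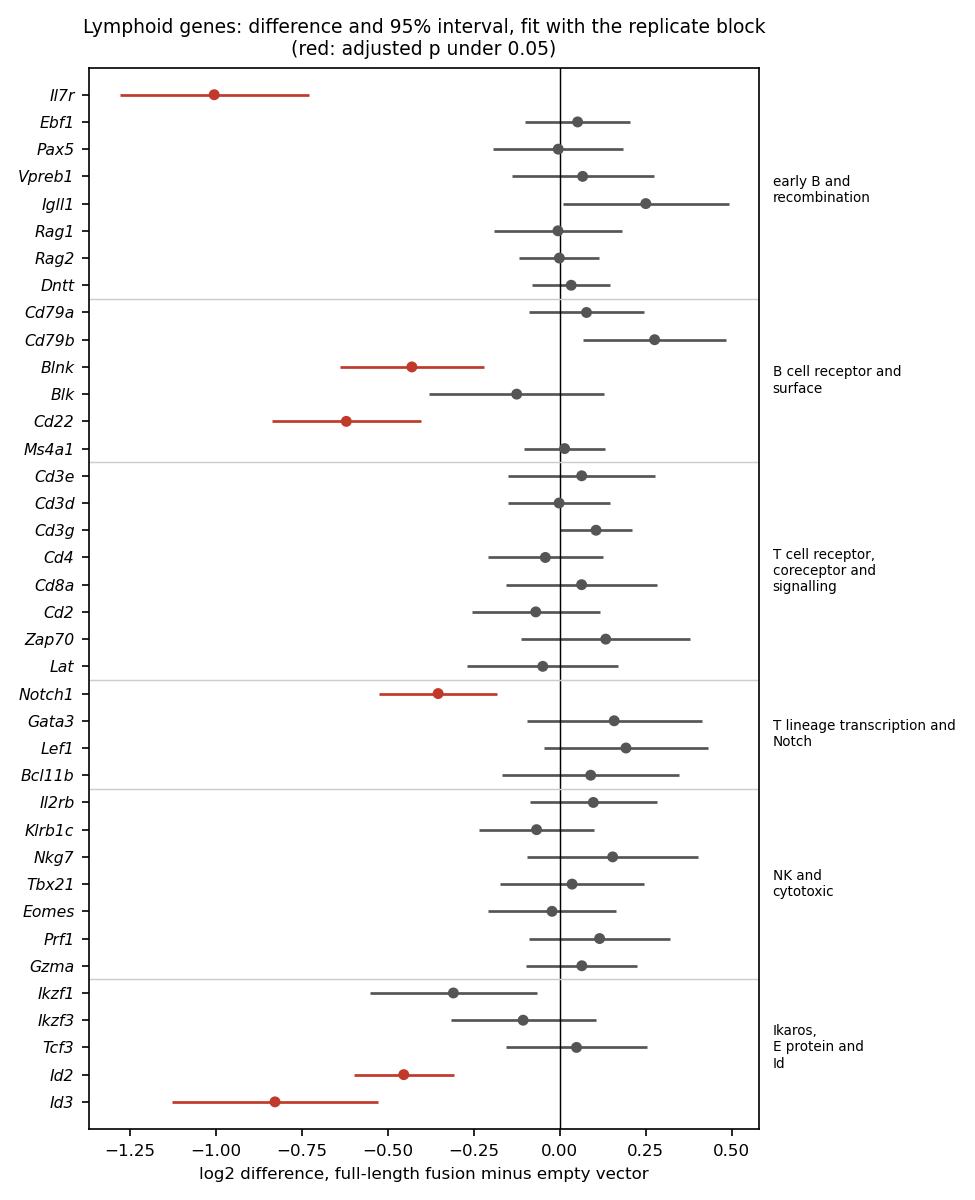
Difference in log2(intensity + 1) between the full-length fusion and the empty vector for the 38 lymphoid genes, with the 95% interval from the fit with the array number as a block. Red marks an adjusted p under 0.05. The 6 red genes lie on the left of 0, from Il7r at -1.01 to Notch1 at -0.35.

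The calls differed in how far they rested on single arrays. A fit without an array leaves its group with 1, which is then assumed to vary like the other groups, whose arrays supply the spread. With the block, and 1 array left out at a time, Il7r passed in all 8 fits for the full-length fusion. Cd22 passed in 7, and did not without the full-length array 2 (adjusted p = 0.0684). Id2 and Id3 each passed in 7 and did not without the full-length array 1 (0.059 and 0.103). Blnk and Notch1 passed in 5, and not without the empty vector array 1 or either full-length array, with adjusted p up to 0.203 and 0.197. The number of genes that passed was 2 without the full-length array 1, 3 without the full-length array 2, and 7 without the empty vector array 2. The lower calls over all probe sets moved the same way, from 965 with all arrays to 287, 300 and 1387 in these fits. The gene added in that last fit was Ikzf1, at -0.53 (adjusted p = 0.00138). Ikzf1, whose array values were chosen for printing after they were seen, stood at 10.84 and 10.67 with the empty vector, 10.33 and 10.56 with the full-length fusion, 10.31 and 10.50 with delFG1 and 10.31 and 10.71 with delFG2.

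Each mutant was also set against the empty vector. These comparisons share the empty vector arrays with the first, so their likeness to it is not independent. With delFG1, 6 of 38 genes were lower with the block, beside 4.18% of all probe sets, and 1 was higher, beside 1.94%. None passed without the block, beside 0.129% of all probe sets, and 7 had an unadjusted p under 0.05, beside 9.61%. The lower genes included Il7r, with a difference of -1.05 (interval -1.33 to -0.78, adjusted p = 0.000666 with the block and 0.272 without), and Id2, with -0.65 (interval -0.79 to -0.50, adjusted p = 0.000265 with the block and 0.499 without). Cd22 differed by -0.67 (interval -0.88 to -0.45, adjusted p = 0.00229 with the block and 0.107 without), and Id3 by -0.63 (interval -0.93 to -0.33, adjusted p = 0.0195 with the block and 0.636 without).

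The other genes that passed with delFG1 did not pass with the full-length fusion. In the direct comparison of delFG1 with the full-length fusion, described below, none of them passed. There Lat differed by -0.44, Cd2 by -0.28 and Cd79b by 0.09 (interval -0.11 to 0.30 with the block). Lat fell by 0.49 on the log2 scale (adjusted p = 0.0142 with the block and 0.206 without), Cd2 fell by 0.35 (0.0346 and 0.186), and Cd79b rose by 0.37 (0.0431 and 0.332). Blnk, at -0.15 (adjusted p = 0.481 with the block), and Notch1, at -0.19 (0.227), did not pass with delFG1. Il7r, Id2 and Cd22 passed in all 8 fits with 1 array left out, Id3 and Lat in 5, Cd79b in 3 and Cd2 in 2. The count was 3 without the empty vector array 1 and 4 without either delFG1 array, while the lower calls over all probe sets went from 911 to 709, 390 and 485. Without the empty vector array 2 the count was 7, with Ikzf1, at -0.57 (adjusted p = 0.000902), in place of Id3, and 1322 lower calls over all probe sets. Id3 was lost without either empty vector array or the delFG1 array 2, and Lat without the empty vector array 1 or either delFG1 array, with adjusted p up to 0.274 for both. Cd2 and Cd79b were lost with adjusted p up to 0.51 and 0.514, and also in the fit with the block but no intensity trend, where 5 genes passed.

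With delFG2, none of the 38 genes passed with the block, beside 0.505% of all probe sets, and none without, beside 0.00459%. Unadjusted, 8 genes with the block and 4 without had a p under 0.05, beside 10.8% and 4.43% of all probe sets. The genes closest to the threshold with the block were Cd22, at -0.45 (interval -0.66 to -0.23, adjusted p = 0.0874), and Il7r, at -0.55 (interval -0.82 to -0.27, adjusted p = 0.0964). Id2 differed by -0.22 (interval -0.36 to -0.07), Id3 by -0.22 (interval -0.52 to 0.08) and Notch1 by -0.02, with adjusted p-values of 0.217, 0.627 and 0.969. With 1 array left out, a single gene passed in 2 of the fits: Ikzf1 without the empty vector array 2, at -0.47 (adjusted p = 0.00797), and Nkg7 without the delFG2 array 2, at 0.56 (0.0467). In both fits a compared group held 1 array, and the calls over all probe sets were 472 higher and 593 lower in the former and 57 and 54 in the latter, against 23 and 87 with all arrays.

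**Figure D3:**
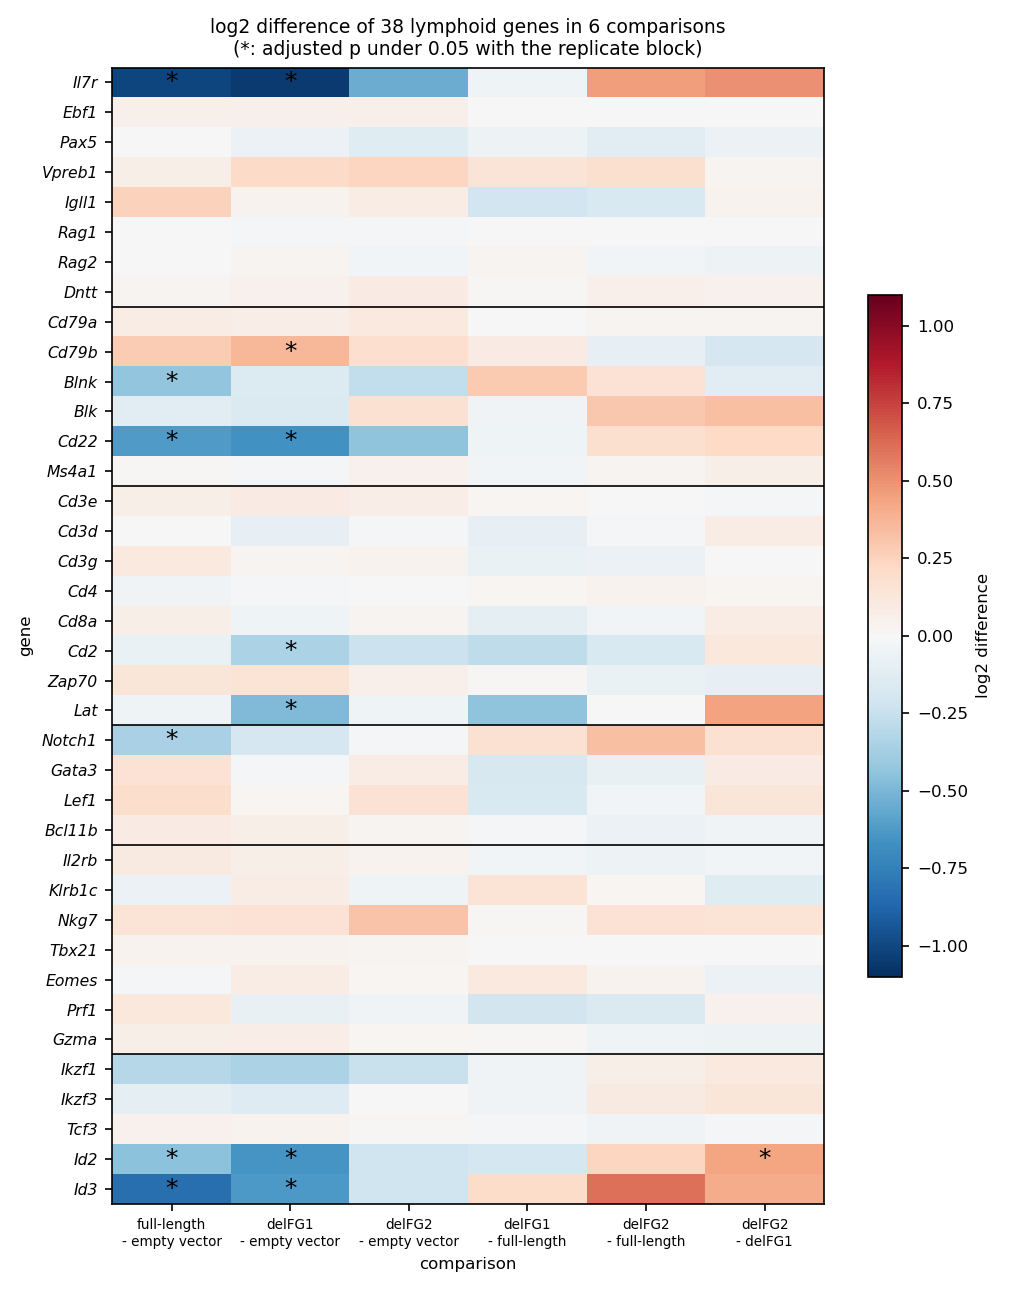
Differences in log2(intensity + 1) for the 38 lymphoid genes (rows) in the 6 comparisons (columns), with blue for lower and red for higher. A star marks an adjusted p under 0.05 with the block. Il7r is at -1.01, -1.05 and -0.55 against the empty vector with the full-length fusion, delFG1 and delFG2.

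The tests of the mutants against the full-length fusion ask directly whether the deletions change these genes. None of the 38 passed in either, with or without the block. For delFG1, the calls over all probe sets were 0.078% with the block and 0.00918% without, and 4 genes with the block and 3 without had an unadjusted p under 0.05, beside 4.07% and 2.07% of all probe sets. Lat came closest, at -0.44 (interval -0.66 to -0.22, adjusted p = 0.364 with the block), followed by Cd2, at -0.28 (0.769). The others of the 4 were Blnk, higher with delFG1 at 0.28 (0.904), and Id2, lower at -0.19 (0.933). Il7r, Id2, Cd22 and Id3 passed against the empty vector both with delFG1 and with the full-length fusion.

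For delFG2 against the full-length fusion, the calls over all probe sets were 0.468% with the block and 0.0275% without. Of the 38 genes, 5 with the block and 1 without had an unadjusted p under 0.05, beside 8.39% and 2.76%, and all 5 were higher with delFG2. They were Id3, at 0.61 (interval 0.31 to 0.91, adjusted p = 0.118), Notch1, at 0.33 (interval 0.16 to 0.50, 0.138), Il7r, at 0.46 (interval 0.18 to 0.73, 0.222), Id2, at 0.24 (interval 0.09 to 0.38, 0.234), and Blk, at 0.30 (interval 0.04 to 0.55, 0.479). Notch1 passed in the fits that left out either empty vector array and in no other, with an adjusted p as low as 0.0277. The first 4 of these genes had fallen with the full-length fusion, whose arrays both comparisons use.

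The mutants were then set against each other, where 1 of 38 genes passed with the block and was higher with delFG2, beside 0.404% of all probe sets. This was Id2, at 0.43 (interval 0.29 to 0.58, adjusted p = 0.0197 with the block and 0.9997 without), higher by 0.55 within array number 1 and by 0.31 within number 2. It passed in 3 of the 8 fits with 1 array left out, with an adjusted p up to 0.498 in the others, and did not pass in the fit with the block but no intensity trend, where 0 genes did. Without the block 0 genes passed, beside 0% of all probe sets, and 2 had an unadjusted p under 0.05, beside 3.13%. Lat was 0.44 higher with delFG2 (adjusted p = 0.101 with the block), Il7r 0.51 (0.156) and Id3 0.41 (0.381).

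The array number itself moved with some of the same genes. Id2, Id3 and Il7r were higher on the arrays numbered 2 in all 4 groups, by 0.54, 0.68 and 0.53 on average, with adjusted p-values of 0.000131, 0.0015 and 0.00335. These were 3 of 38 (7.89%), a share near the 6.43% of all probe sets that were higher on the arrays numbered 2. The labels do not say what the numbers stand for, and the part of whatever they mark in the other results was not tested.

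The wider lymphoid programme was described with 107 further genes in 5 lists, of which 96 were measured. In the fit with the block, 7 rose and 11 fell with the full-length fusion, beside 2.18% and 4.43% of all probe sets, and without the block 1 changed, beside 0.124%, and it rose. The B lineage list had 0 higher and 2 lower of 21, the tyrosine kinase gene Syk at -0.41 and the B cell scaffold gene Bank1 at -0.60. The T lineage list had 6 higher and 3 lower of 23. Cd28, a costimulatory receptor of T cells, had signals of 7.47 and 7.99 with the empty vector, 9.06 and 9.09 with the full-length fusion, 8.92 and 9.06 with delFG1 and 8.43 and 8.42 with delFG2, with no overlap between empty vector and the rest. Its difference with the full-length fusion was 1.35 (adjusted p = 0.000157 with the block and 0.0204 without).

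Cd27, a receptor of the tumour necrosis factor family on T cells and progenitors, rose by 1.41 with the full-length fusion (adjusted p = 0.000215 with the block). Its signals were 6.05 and 5.48 with the empty vector, 7.40 and 6.93 with the full-length fusion, 7.48 and 6.93 with delFG1 and 6.48 and 6.47 with delFG2. Icos, a relative of Cd28, rose by 0.79 (0.00802), while Prkcq, a protein kinase C of T cell activation, fell by 0.94 on the log2 scale (0.00142). Icos lay below the lowest array median on 7 of 8 arrays, and Cd27 on both empty vector arrays.

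Of the cytokine receptor and JAK-STAT genes linked to Il7r and Il2rb, 1 of 16 was higher and 2 were lower. Il2ra, the alpha chain of the interleukin 2 receptor, rose by 1.93 with the full-length fusion (adjusted p = 0.00145 with the block). Its signals were 6.42 and 7.04 with the empty vector, 9.08 and 8.23 with the full-length fusion, 7.80 and 7.72 with delFG1 and 8.005 and 7.42 with delFG2. The lower genes were Il15, a cytokine of NK cells, at -0.42, and Mcl1, a survival gene, at -0.30. In the NK and innate lymphoid list 2 of 19 were lower, Gzmb, a cytotoxic granule protease, at -0.84 (0.000654) and Il18rap, an interleukin 18 receptor chain, at -0.43. In the list headed E protein, Id and Ikaros relatives 2 of 18 were lower, and both belong to other families. Tcf7l2, a Wnt pathway transcription factor, differed by -1.22 (0.000383) and Notch2, which marginal zone B cells need, by -0.50 (0.00218).

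**Figure D4:**
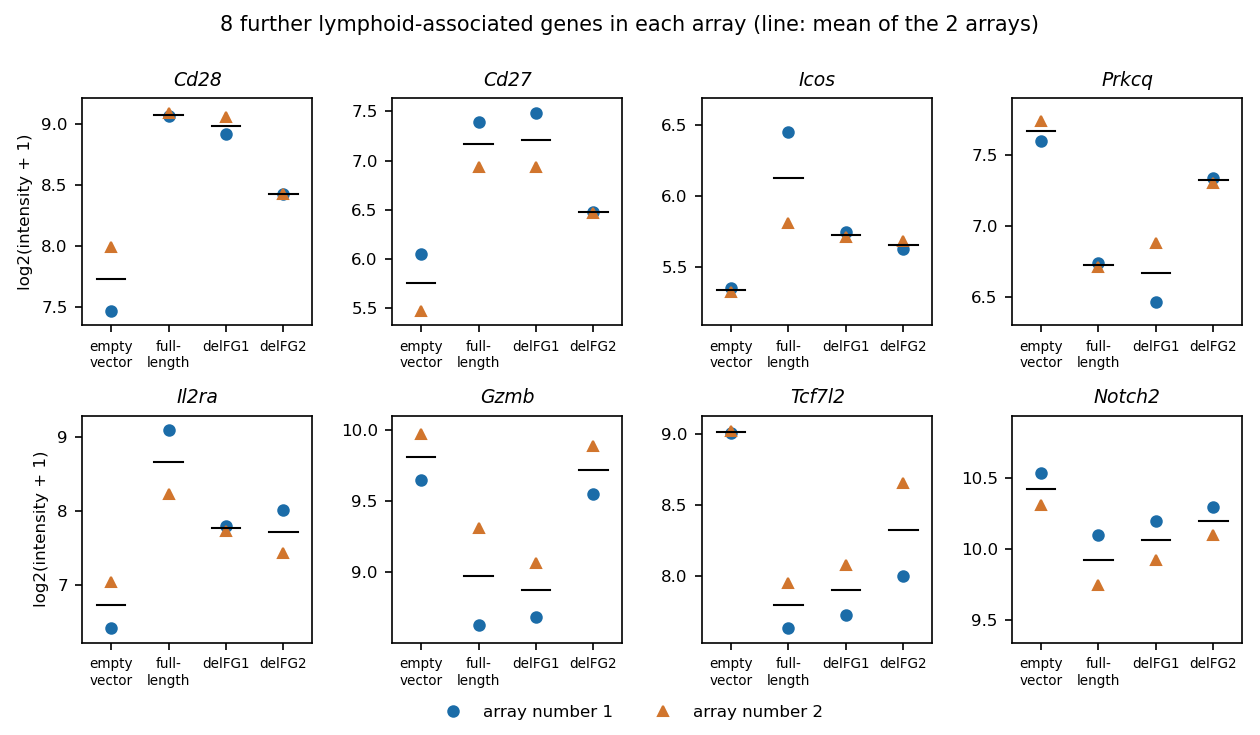
Signal, as log2(intensity + 1), of 8 further lymphoid genes on each of the 8 arrays, by group, with each panel on its own axis. Circles mark array number 1, triangles number 2, and lines the group mean. Cd28 and Il2ra lay above both empty vector arrays on all 6 arrays of the fusion and its mutants.

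With delFG1 against the empty vector, 7 of the 96 genes were higher and 7 lower with the block, beside 1.94% and 4.18% of all probe sets, and 2 were higher without it, beside 0.129% either way. With delFG2 against the empty vector, 2 were higher and 0 lower with the block, beside 0.505% either way, and 0 passed without it. Against the full-length fusion, 1 gene was higher with delFG1 and 1 with delFG2, beside 0.078% and 0.468% either way, and in neither did any pass as lower. None of the 96 passed without the block in these comparisons or between the mutants. The gene higher with delFG1 was Tox, a T lineage nuclear factor, at 1.01, and the gene higher with delFG2 was Gzmb, at 0.75. Tox was named after its values were seen. Between the mutants, Gzmb was 0.85 higher with delFG2, while Tox and Cd27 were lower, at -0.74 and -0.73.

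Markers of other blood cells moved as well, in the fit with the block, where 6 of 51 rose and 17 fell with the full-length fusion, beside 2.18% and 4.43% of all probe sets. Without the block 0 of the 51 passed there. With the full-length fusion, 4 of 12 neutrophil markers, 5 of 9 monocyte markers, 4 of 8 mast cell and basophil markers and 4 of 8 erythroid and megakaryocyte markers were lower, with 1, 2, 1 and 1 higher. Of the 8 dendritic cell markers none passed, and of the 6 stem and progenitor markers 1 was higher. The log2 of the summed intensity of the monocyte markers was 14.26 and 14.55 with the empty vector, 14.01 and 14.17 with the full-length fusion, 13.92 and 14.13 with delFG1 and 14.07 and 14.33 with delFG2. For the mast cell and basophil markers it was 13.70 and 13.86, 13.51 and 13.74, 13.18 and 13.50, and 13.60 and 13.85 in the same order. The neutrophil sums ran from 15.996 to 16.09 with the empty vector and from 15.87 to 16.03 with the full-length fusion, and from 15.88 to 16.03 with delFG1 and 16.03 to 16.09 with delFG2. The erythroid and megakaryocyte sums were 11.12 and 11.13, 10.87 and 10.73, 10.69 and 10.69, and 11.22 and 11.08 in the order of the groups above. With delFG1 against the empty vector, 3 of 12 neutrophil and 6 of 9 monocyte markers were lower with the block. So were 7 of 8 mast cell and basophil and 4 of 8 erythroid and megakaryocyte markers, beside 4.18% of all probe sets. Higher were 2 neutrophil and 2 monocyte markers, beside 1.94%, and none of the mast cell, basophil, erythroid or megakaryocyte markers. These calls stand beside the falls of Lat and Id2. In that comparison 1 of the 51 markers was lower without the block, beside 0.129% of all probe sets either way. Between the mutants all 8 mast cell and basophil markers and all 8 erythroid and megakaryocyte markers had differences above 0. The median difference over all probe sets was -0.009. With the block, 3 and 2 of these markers passed as higher in delFG2, beside 0.404% of all probe sets, and none passed without it. No intensity in the table was at 0, the lowest being 18.3. Since Id2, Id3, Ikzf1 and Lat are also active in myeloid cells, these values stand beside their differences, and their part in the result was not tested.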

How the data were processed

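Microarray signals of 8 arrays were analysed. The deposited table gives linear intensity for 28853 probe sets. Its background correction, summarisation and normalisation were not given in the sources used here, nor was the array model. Per the labels' protocols, RNA was purified with the RNeasy Mini Kit and labelled with biotin. The array distributions were already nearly equal, so no normalisation was added. Of the probe sets, 21789 with 1 gene symbol were tested, 1621 had several and 5443 none in the platform annotation supplied. A gene with several probe sets would be given by that with the highest mean.

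Differences in log2(intensity + 1) were fitted by limma 3.58.1, under R 4.3.3 (lmFit and eBayes with an intensity trend, all 8 arrays, 4 group means, two-sided). Benjamini-Hochberg adjustment ran over all 21789 probe sets, with a threshold of 0.05. The fit had 4 residual and 4.62 prior degrees of freedom, and 3 and 7.78 with the array number as a block. The fit planned as the main one had no block, as the labels name none, and the array number was an alternative. Same-numbered arrays deviated together from their group means in all 6 pairs of groups (r between 0.401 and 0.640), as seen in these same data. The numbers were therefore taken to pair the samples, and results with the block are given beside those without. The labels' numbers are the source of the pairing. The procedure was run on simulated data that had an array-number effect and independent noise built in. That run therefore cannot show whether the block is right for these arrays.

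The members and lists were chosen with earlier results of these data known. Values on every array are given for members past the threshold in any comparison, with or without the block. In each role they are also given for the member with the smallest p with the full-length fusion and that with the highest mean. Of the further lymphoid genes, the text gives them only for Cd28, Cd27 and Il2ra. Further genes are named by the smallest p with the block, at most 4 in a list. Promoters are those of members past the threshold in a main comparison, which they passed only with the block. The number of arrays limits the precision.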

Additional observations from a re-analysis of the deposited data

How the results depend on the processing

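Counts of members called were 0 in all 6 comparisons without the block, whatever array, pseudocount, scaling, filter or trend was used. They were also 0 with the probe sets of a gene averaged, which could not change a member's own values, as each had 1 probe set. The replicate block changed 3 of them: 6 with the full-length fusion and 7 with delFG1, each against the empty vector, and 1 between the mutants. Leaving out 1 array at a time gave 0 to 0 without the block in all 6. With the block it gave 2 to 7 for the full-length fusion and 3 to 7 for delFG1 against the empty vector, 0 to 1 for delFG2 against the empty vector and against the full-length fusion, 0 to 2 between the mutants, 0 to 0 for delFG1 against the full-length fusion, and 3 to 4 for array number 2 against 1. Combining the block with other settings was chosen after seeing the data. The 6 members called for the full-length fusion were called under all 6 such combinations, of which averaging probe sets leaves member values as they are. Without the intensity trend the count was 0 between the mutants and 5 for delFG1 against the empty vector, where Cd2 and Cd79b were lost. The cause was not tested. No difference changed sign under a setting that called it. With 2 arrays a group and no detection calls, the 25 genes below the array medians limit what can be read from small differences.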
